A study of Mus musculus with 35 samples.

Results

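The 6 *Hes* and *Hey* genes described here, *Hes1*, *Hes5*, *Hes6*, *Hey1*, *Hey2* and *Heyl*, were taken by name from the 53465 genes listed in the bulk table. Each was found once, by its Ensembl identifier, and each was also counted in the single cells. The data come from mouse brains at E14.5, a day of embryonic neurogenesis and of vessel growth into the brain. For bulk RNA-seq, neural, mural, endothelial and microglial cells were sorted by FACS from each of 3 wild-type brains, which gave 12 libraries. The brains are named here by their neural libraries, N-340, N-343 and N-346, and values of 3 libraries are listed in that order. For single-cell RNA-seq by mCEL-Seq2, which counts molecular identifiers at the 3′ end of transcripts, wild-type cells were placed on plates 1 to 3 and *Mof* knockout cells on plates 4 to 6. The labels give E14.5 for all samples, no driver of the knockout and no sort gate for the knockout wells. Nor do they say which brain a plate holds, so a p-value across plates measures only the spread between plates. No plate held both genotypes, so genotype and plate cannot be told apart. The neural bulk libraries were made with another kit (TruSeq) than the remaining 3 populations (SMART-Seq and Nextera XT), so the kit and the neural population cannot be told apart.

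Notch is a receptor that is cut when a ligand of the Delta or Jagged family on a neighbouring cell binds it. The freed intracellular part joins RBPJ on DNA and turns on transcription, and the *Hes* and *Hey* genes, which encode basic helix-loop-helix repressors, are its best known targets. In the embryonic brain *Hes1* and *Hes5* keep neural progenitors from differentiating by repressing proneural genes, *Hes6* counteracts *Hes1* and goes with neuronal differentiation, and in vessels the *Hey* genes act in endothelial and mural cell development.

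On GRCm38, with the GENCODE vM21 annotation, *Hes1* (ENSMUSG00000022528) lies at chr16:30064384-30067796 on the plus strand. *Hes5* (ENSMUSG00000048001) lies at chr4:154960923-154962371, also on the plus strand, and *Heyl* (ENSMUSG00000032744) at chr4:123233556-123249875 on the same strand. On the minus strand lie *Hes6* (ENSMUSG00000067071) at chr1:91411483-91414038, *Hey1* (ENSMUSG00000040289) at chr3:8663359-8667256 and *Hey2* (ENSMUSG00000019789) at chr10:30832359-30842801. All values are counts over the whole gene, with no separation of isoforms.

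Promoter sequences from RefSeq (GRCm38.p6) were found for *Hes5*, *Hes6* and *Hey2*, that is for 3 of the 6 genes, with 4 entries. For 3 of these entries the 250 bases before the start of the transcript are shown, because Notch is known to act on its target genes through RBPJ bound near their starts. Capitals mark matches, on either strand, to GTGGGAA, the letters that RBPJ prefers, whose opposite strand reads TTCCCAC, or to the N-box CACNAG, to which HES proteins bind. The intervals are chr4:154960673-154960922 (plus strand) for *Hes5*, chr10:30842784-30843033 (minus strand) for *Hey2* and chr1:91413223-91413472 (minus strand) for *Hes6*.
Hes5: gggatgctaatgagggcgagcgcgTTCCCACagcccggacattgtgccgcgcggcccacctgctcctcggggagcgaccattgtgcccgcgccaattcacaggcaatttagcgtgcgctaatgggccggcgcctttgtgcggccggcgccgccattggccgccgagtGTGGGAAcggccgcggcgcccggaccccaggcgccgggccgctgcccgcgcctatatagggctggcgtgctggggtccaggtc
Hey2: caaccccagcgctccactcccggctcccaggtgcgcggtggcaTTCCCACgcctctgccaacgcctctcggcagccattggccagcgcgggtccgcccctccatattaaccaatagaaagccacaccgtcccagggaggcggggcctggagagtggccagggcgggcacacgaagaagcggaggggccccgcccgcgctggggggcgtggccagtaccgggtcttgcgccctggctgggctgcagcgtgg
Hes6: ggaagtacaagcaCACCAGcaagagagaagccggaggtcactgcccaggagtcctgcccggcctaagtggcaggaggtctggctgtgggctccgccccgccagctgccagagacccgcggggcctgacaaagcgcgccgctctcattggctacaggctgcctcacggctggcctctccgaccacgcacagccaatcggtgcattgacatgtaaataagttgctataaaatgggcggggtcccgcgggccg
The *Hes5* promoter held GTGGGAA on both strands, beginning 83 and 226 bases before the start. In the *Hey2* promoter it occurred on the opposite strand, 207 bases before the start. The *Hes6* window shown lies inside the gene interval given above (chr1:91411483-91414038), so its start is not the outermost one. It held an N-box match 237 bases before that start. The other *Hes6* entry, chr1:91414039-91414288, lies directly before the gene interval and held none of the motifs searched. Among 32851 promoters of the same length, 5.42% held GTGGGAA, 21.6% its core TGGGAA, which GTGGGAA contains, 36.7% the N-box, 6.02% CACGTG and 7.62% CACGCG. A match of letters is a description of the sequence and not a measured binding site.

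The bulk libraries held 17638358 to 98414914 reads on genes. Of the single cells, 1591 had more than 1500 transcripts, 686 of them in the 4 wild-type gates, 23 in wild-type wells of a medium or low PDGFRB gate and 882 on knockout plates. Plate 3 held only 43 cells, against 349 and 317 on plates 1 and 2. In the bulk libraries the summed level of 9 progenitor markers was 25055 to 48334 normalized counts in mural cells, close to 41176 to 45900 in neural cells. The 9 genes did not go 1 way: *Fabp7* was higher in mural cells (18397 to 34842 against 7006 to 8042 in neural cells), *Sox9*, *Ddah1* and *Phgdh* overlapped between both, and *Sox2*, *Pax6*, *Slc1a3*, *Ptprz1* and *Ttyh1* were lower in every mural library (*Sox2* 188 to 382 against 4252 to 4553). The 9 mural markers summed to 3969 to 7008 in endothelial libraries, against 709288 to 766245 in mural ones, and the 11 endothelial markers to 12797 to 17539 in mural libraries, against 203847 to 230548 in endothelial ones. In mural libraries the highest of these were *Emcn* (4466 to 5508) and *Esam* (3017 to 5404), while *Pecam1* was at 38.5 to 65.5 and *Cldn5* at 0 to 147. The 7 erythroid markers summed to 13054 to 34138 in endothelial and 9042 to 11841 in neural libraries, and the 6 border macrophage markers to 15405 to 19616 in microglial ones. What these markers contribute to the levels below was not tested.

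*Hes1*, the Notch target that maintains progenitors, had its highest bulk levels in the vascular cells. In mural cells its normalized count, which is reads scaled by the authors to a common library size, was 7886, 8009 and 9588 (8494 ± 949, SD, n = 3). Endothelial cells had 6203, 6349 and 5137 (5897 ± 662), neural cells 815, 812 and 763 (797 ± 29.0) and microglia 921, 714 and 549 (728 ± 187). Both vascular populations lay far above the other 2 in every brain. On the log2(normalized count + 1) scale, used for every bulk difference, neural minus mural was -3.41 (SE 0.19, limma, Benjamini-Hochberg adjusted p = 1.48e-07) and neural minus endothelial -2.88 (limma, adjusted p = 4.03e-07). Mural minus endothelial was 0.53 (limma, adjusted p = 0.0558) with no overlap of the libraries. On the recovered reads it was called, at 0.53 with DESeq2 (adjusted p = 0.0317) and 0.58 with edgeR (adjusted p = 0.0485), and over the other alternatives the limma adjusted p ran from 0.0538 to 0.206. Neural minus microglial was 0.16 (limma, adjusted p = 0.479) with overlap. As with any sorted bulk sample, fewer cells that express a gene and less of its RNA per cell cannot be told apart.

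*Hes5*, the other progenitor-maintaining target, was highest and least variable in neural cells. Neural libraries had 764, 732 and 701 normalized counts (732 ± 31.2). Mural cells had 589, 165 and 730 (495 ± 294), endothelial cells 214, 49.7 and 166 (143 ± 84.6) and microglia 313, 187 and 57.9 (186 ± 127). The mural library Mu-346 lay above the neural library of the same brain, so these groups overlapped, whereas every endothelial and microglial library was below every neural one. The progenitor markers summed to 37823, 48334 and 25055 in the same mural libraries, and their part in these *Hes5* levels was not tested. Neural cells exceeded endothelial cells by 2.59 (SE 0.75, limma, adjusted p = 0.0125) and microglia by 2.27 (limma, adjusted p = 0.0222), while the difference to mural cells was 0.82 (limma, adjusted p = 0.386). The call against endothelial cells was lost without brain N-343 and the call against microglia without brain N-340, without brain N-346 or after quantile normalization (limma, adjusted p = 0.0737, 0.0547, 0.18 and 0.0742).

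*Hes6*, which encodes the relative that antagonises HES1, was at 1133 to 2941 normalized counts in the bulk libraries of all 4 populations. In the single cells below, the neural gate exceeded the others by more, at 2.26 to 2.77 on the log2 scale. Neural cells had 2746, 2728 and 2941 normalized counts (2805 ± 119), endothelial cells 1715, 1781 and 1921 (1806 ± 105), microglia 1977, 1731 and 1133 (1614 ± 434) and mural cells 1370, 1887 and 1229 (1495 ± 346.5). Every neural library was above every other library, and the other 3 populations overlapped. Neural cells exceeded mural cells by 0.93 (SE 0.22, limma, adjusted p = 0.00408), microglia by 0.83 (limma, adjusted p = 0.00675) and endothelial cells by 0.64 (limma, adjusted p = 0.0278). Against endothelial cells the call was lost without brain N-340, without brain N-343 or after quantile normalization (limma, adjusted p = 0.129, 0.1 and 0.144), and against microglia without brain N-346 (limma, adjusted p = 0.0581).

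*Hey1*, a target of Notch in endothelial cells and in the neural tube, was highest in endothelial cells and lowest in microglia. Endothelial libraries had 3652, 3877 and 2446 normalized counts (3325 ± 769), mural cells 1516, 1944 and 1513 (1658 ± 248), neural cells 1095, 1203 and 1170 (1156 ± 55.2) and microglia 147, 117 and 74.3 (113 ± 36.8). The 4 populations did not overlap. Mural minus endothelial was -0.99 (SE 0.27, limma, adjusted p = 0.0193), a call lost without brain N-340, without brain N-343 or after quantile normalization (limma, adjusted p = 0.139, 0.132 and 0.0694). Endothelial cells exceeded microglia by 4.89 (limma, adjusted p = 1.78e-07), mural cells exceeded them by 3.91 (limma, adjusted p = 9.18e-07) and neural cells by 3.40 (limma, adjusted p = 1.43e-06). The difference between neural and endothelial cells was -1.50 (limma, adjusted p = 0.000732) and that between neural and mural cells -0.51 (limma, adjusted p = 0.134). The latter was called after quantile normalization.

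*Hey2*, known for its role in arterial vessels and heart, was a gene of the mural libraries. They had 2191, 2766 and 2543 normalized counts (2500 ± 290), against 171, 144 and 142 in neural cells (152 ± 16.2). The endothelial library Ec-340 had 358, but Ec-343 and Ec-346 only 1.42 and 7.54, and microglia had 0, 7.12 and 10.1. Mural libraries stood above all others, neural libraries lay close together, and the endothelial group was split by 1 library. Mural cells exceeded microglia by 9.12 (SE 1.53, limma, adjusted p = 0.000722), a value that rests on the pseudocount because microglial levels were near 0. They exceeded endothelial cells by 7.0 (limma, adjusted p = 0.00607), which was not called without brain N-343 or without brain N-346 (limma, adjusted p = 0.105 and 0.111). The size of this difference ran from 4.35 with DESeq2 on the recovered reads and 5.41 without brain N-343 to 9.19 without brain N-340. Neural minus mural was -4.03 (limma, adjusted p = 0.0444). That call was lost with the brain as a replicate block, with a pseudocount of 0.5, without the filter and without brain N-343 or N-346 (limma, adjusted p = 0.0661, 0.0633, 0.0644, 0.143 and 0.219), although every mural library was above every neural one. Neural cells also exceeded microglia by 5.09 (limma, adjusted p = 0.0141), a call lost without brain N-346 (limma, adjusted p = 0.0858). The size of this difference rests on the pseudocount too, and was 3.42 with a pseudocount of 10 and 3.92 without brain N-340. Neural minus endothelial was 2.97 (limma, adjusted p = 0.118) and, without brain N-340, 4.98 (limma, adjusted p = 0.00295).

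*Heyl*, which is expressed in smooth muscle cells and pericytes, showed the widest range of the 6 genes. Mural cells had 9133, 8483 and 13444 normalized counts (10353 ± 2696), and neural cells 10.7, 8.86 and 12.2 (10.6 ± 1.65). Endothelial libraries had 0, 238 and 303, and microglial libraries 1.19, 93.7 and 7.55. No library outside the mural group came above 303, and the endothelial library without any *Heyl* read was Ec-340, the one that had most *Hey2*. The 9 mural markers summed to 7008, 3969 and 6105 in the endothelial libraries, of which *Rgs5* alone made up 6872, 3469 and 5212. *Pdgfrb*, a defining mural marker, was at 0, 0 and 16.6 there, and 6 of the 9 were at 0 in some endothelial library. Neural minus mural was -9.79 (SE 1.95, limma, adjusted p = 0.00147). Mural cells exceeded microglia by 9.71 (limma, adjusted p = 0.00235) and endothelial cells by 7.92 (limma, adjusted p = 0.0114), where the library at 0 makes the size depend on the pseudocount. Mural minus endothelial was 5.31 without brain N-340, 9.31 without N-343, 9.15 without N-346 and 5.84 with DESeq2 on the recovered reads. Mural minus microglial was 8.55 without N-340, 11.3 without N-343 and 8.24 with DESeq2 on the recovered reads. The calls against microglia and against endothelial cells were lost without brain N-346 (limma, adjusted p = 0.0573 and 0.0719). Neural minus endothelial was -1.86 (limma, adjusted p = 0.436), and -4.57 without brain N-340 (limma, adjusted p = 0.0157).

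**Figure D1:**
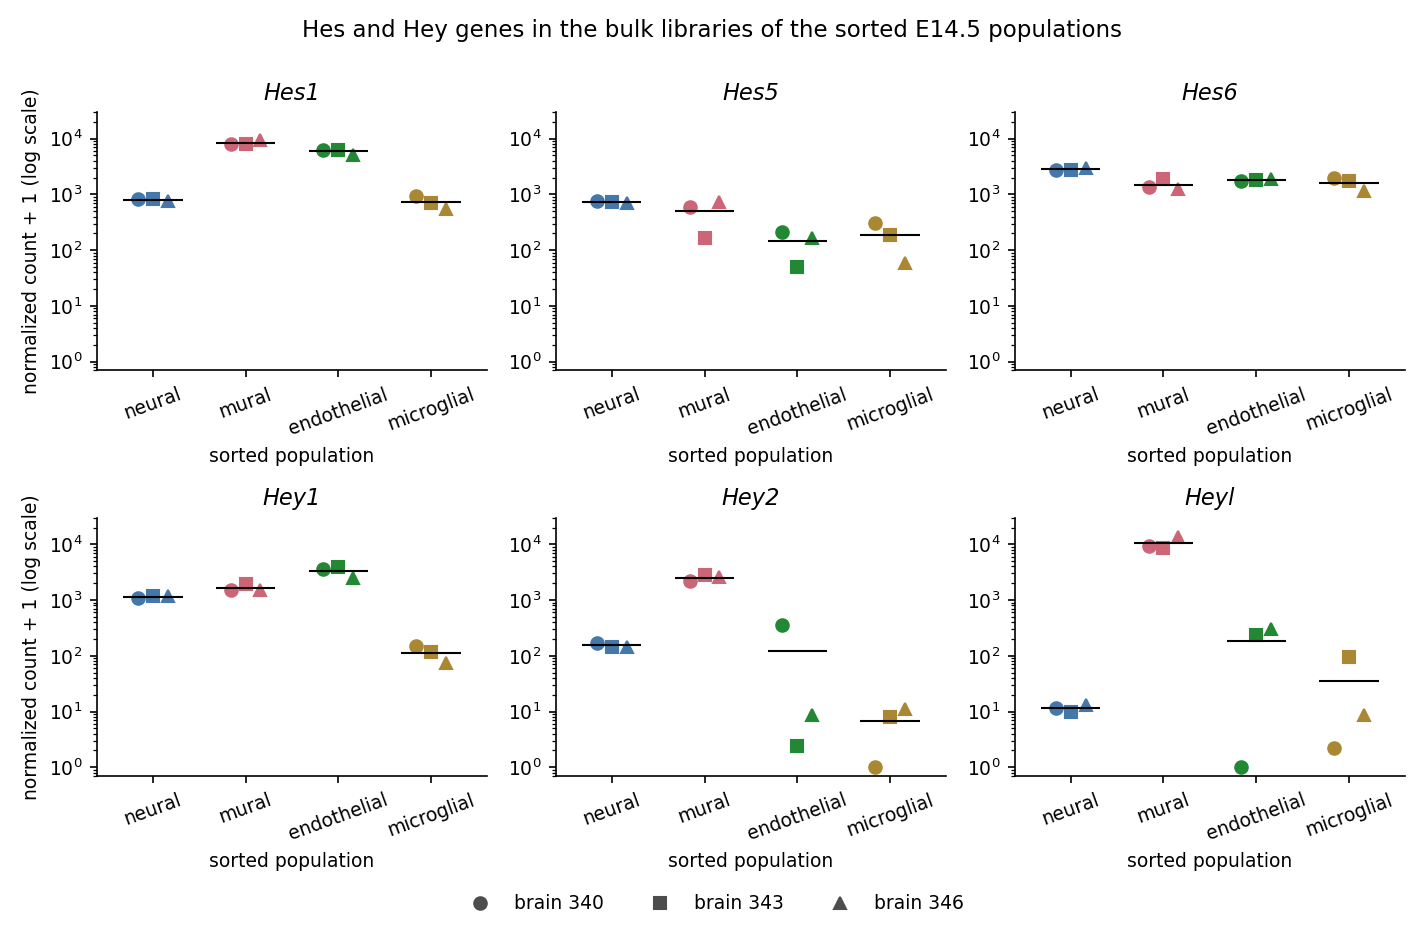
Normalized counts of the 6 genes in the 12 bulk libraries, 1 panel per gene, as normalized count + 1 on a log axis, with the 4 populations on the horizontal axis, a symbol per brain, named by its number in the labels, and a line at the mean. *Hes1* was near 8494 and 5897 in mural and endothelial cells, *Hey2* and *Heyl* were highest in the 3 mural libraries, and *Hes6* stayed between 1133 and 2941 in all 12.

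Counted over the 6 genes, 4 differed between neural and mural cells at an adjusted p under 0.05, where 54.6% of 19765 genes tested did. Between neural and endothelial cells 4 differed (57.7% of all genes), between neural cells and microglia 4 (59.8%), between mural and endothelial cells 3 (27.8%), between mural cells and microglia 4 (38.0%) and between endothelial cells and microglia 2 (32.4%). Of 36 differences 21 were called. With 6 genes, a count of 4 is near the share among all genes in the pairs with neural cells.

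Per kilobase of exon, the scale on which genes can be compared, the order of the 6 genes differed between populations. In neural cells *Hes6* led with 1551 normalized counts per kb, followed by *Hes5* (537), *Hes1* (391), *Hey1* (354), *Hey2* (33.2) and *Heyl* (2.07), and the 3 libraries of each gene kept apart from those of its neighbours. In mural cells *Hes1* led with 4170 per kb, before *Heyl* (2025), *Hes6* (827), *Hey2* (544), *Hey1* (508) and *Hes5* (363), and the libraries of the last 3 overlapped. Endothelial cells had *Hes1* first at 2895 per kb, then *Hey1* (1018) and *Hes6* (999), which overlapped, then *Hes5* (105), *Heyl* (35.3) and *Hey2* (26.6), which overlapped as well. In microglia *Hes6* (893) came before *Hes1* (357), *Hes5* (136), *Hey1* (34.6), *Heyl* (6.68) and *Hey2* (1.25), where *Hes5* overlapped with *Hey1* and *Heyl* with *Hey2*.

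Across the 12 libraries, the genes whose log2 levels were most like those of *Hes1* were *Gm12158*, *Foxc1* and *Car2* (Pearson's r = 0.992, 0.991 and 0.990). *Hey1* was most like *Tcaf2*, *Stk25* and *Fgd5* (r = 0.990, 0.985 and 0.985) and *Hey2* most like *Adamts14*, *Ccdc6* and *Zfp663* (0.970, 0.968 and 0.957). *Heyl* went with *Tefm*, *Gm42899* and *Trip6* (0.958, 0.953 and 0.934), *Hes6* with *Fam20b*, *Cstf2* and *Fem1a* (0.958, 0.947 and 0.942) and *Hes5* with *Uba3*, *Helq* and *Tfap2c* (0.951, 0.945 and 0.928). None of the 6 was among the 3 nearest to another. These values describe 12 libraries that share 4 populations and 2 kits, and they are the highest among all genes considered.

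In the wild-type single cells the sort gates held 123 neural, 210 mural, 225 endothelial and 128 microglial cells, with a median of 7717, 6885, 6408 and 10761 transcripts per cell. By summed markers, cells of the neural gate fell into 33 progenitor-like and 90 neuron-like cells (1 cell scored highest for mural markers), and the mural gate held 195 mural-like, 10 progenitor-like and 5 neuron-like cells. The endothelial gate held 207 endothelial-like cells and 18 of other classes, among them 6 mural-like and 5 progenitor-like, the rest being neuron-like or microglia-like. All 128 cells of the microglial gate were microglia-like. Levels are given as transcripts scaled to a common total per sum of cells (CPM), for the cells summed on plates 1, 2 and 3, where plate 3 is shallow: a count of 0 among its neural cells allows up to 32.8 CPM. These limits, and the exact intervals used below, account for counting error alone.

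*Hes1* again separated the vascular gates from the rest. It reached 321, 341 and 412 CPM on plates 1, 2 and 3 in mural cells and 307, 297 and 242 in endothelial cells, against 39.8, 30.8 and 0 in neural cells and 11.8, 17.1 and 19.7 in microglia. Neural minus mural was -3.45 on the log2 scale (SE 0.35, edgeR, adjusted p = 3.13e-12), and mural minus endothelial was 0.08 (SE 0.27, edgeR, adjusted p = 0.897). At least 1 *Hes1* transcript was found in 77.6% of mural cells (exact 95% interval 71.4 to 83.1), 72.4% of endothelial cells (66.1 to 78.2), 13% of neural cells (7.62 to 20.3) and 10.9% of microglia (6.11 to 17.7). After thinning each cell to 1500 transcripts these shares were 35.7%, 32.7%, 4.32% and 1.99%.

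*Hes5* was uneven between plates in the mural gate. It was at 87.1, 8.27 and 0 CPM there, at 62.0, 37.9 and 0 in neural cells, at 3.13, 15.7 and 0 in endothelial cells and at 1.48, 1.55 and 0 in microglia. Neural minus mural was 0.11 (SE 0.52, edgeR, adjusted p = 0.906), whereas neural cells exceeded endothelial cells by 2.29 (edgeR, adjusted p = 0.00473) and microglia by 4.4 (edgeR, adjusted p = 0.000109). Mural minus endothelial was 2.18 (edgeR, adjusted p = 0.00951). Both calls against endothelial cells were lost with DESeq2. Of the 62 *Hes5* transcripts in the mural gate, 52 were in the 10 progenitor-like cells, and the 195 mural-like cells had 6.91 CPM. *Hes6* was highest in neural cells, at 117, 102 and 153 CPM, against 41.2, 14.2 and 0 in mural, 26.1, 14.1 and 14.2 in endothelial and 11.8, 15.5 and 19.7 in microglial cells. Every neural plate was above every other value, and neural cells exceeded mural cells by 2.26 (edgeR, adjusted p = 1.39e-06), endothelial cells by 2.38 (adjusted p = 6.37e-07) and microglia by 2.77 (adjusted p = 1.68e-07).

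Among the *Hey* genes, *Hey1* was at 91.7, 34.6 and 28.5 CPM in endothelial cells, 26.9, 41.3 and 13.7 in mural cells, 33.2, 35.5 and 0 in neural cells and 1.48, 0 and 0 in microglia. Microglia were lowest on plates 1 and 2, and on plate 3 neural and microglial cells both had 0. Mural minus endothelial was -1.04 (edgeR, adjusted p = 0.0401), a call lost with DESeq2, with library totals in place of TMM and without the filter, and endothelial cells exceeded microglia by 5.86 (edgeR, adjusted p = 7.43e-09). *Hey2* was at 95, 57.9 and 54.9 CPM in mural cells, against 4.43, 4.73 and 10.9 in neural, 6.25, 3.14 and 28.5 in endothelial and 1.48, 0 and 0 in microglial cells. Mural plates were above all others, by 3.38 against endothelial cells (edgeR, adjusted p = 2.64e-07), and neural minus mural was -3.72 (edgeR, adjusted p = 5.44e-07).

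*Heyl* was at 443, 448 and 549 CPM in mural cells and was found in 81.0% of them (exact 95% interval 75.0 to 86.0; 45.2% after thinning). Neural cells had 4.43, 0 and 0 CPM, microglia 0, 1.55 and 0, and in microglia 0.781% of cells held a transcript (exact 95% interval 0.0198 to 4.28). Endothelial cells had 16.7, 1.57 and 199 CPM, far apart between plates. Of their 31 *Heyl* transcripts 4 were in the 207 endothelial-like cells, at 2.63 CPM, so nearly all came from wells whose cells were not endothelial-like by their markers. With all cells, mural cells exceeded endothelial cells by 4.30 (edgeR, adjusted p = 2.67e-11; DESeq2 gave 2.29 with adjusted p = 0.598). Endothelial minus microglial was 4.31 (edgeR, adjusted p = 0.00331), and 1.42 (adjusted p = 0.435) once cells classed unlike their gate were left out, an alternative chosen after seeing the data. It was 7.66 without plate 2, 3.40 without plate 3 and 6.07 with DESeq2. The mural minus endothelial value was 7.34 without the cells classed unlike their gate, and 2.99, 2.75 and 5.31 without plates 1, 2 and 3.

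**Figure D2:**
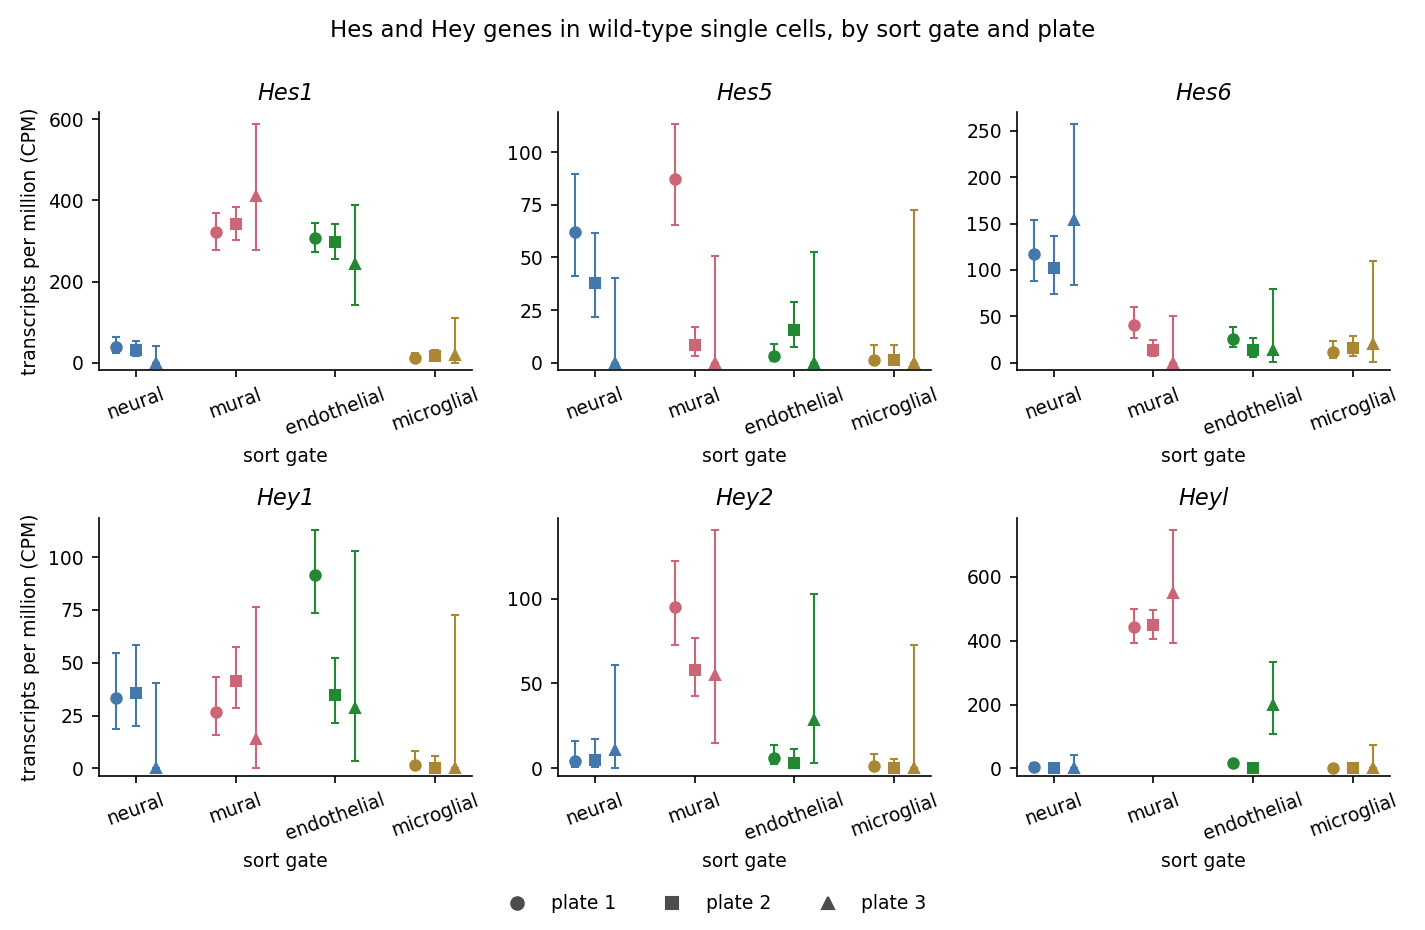
Levels of the 6 genes in CPM of summed transcripts, by wild-type sort gate, with a symbol for each of plates 1 to 3 and exact 95% Poisson intervals as bars. Mural cells held 443 to 549 CPM of *Heyl* and neural cells at most 4.43, while *Hes1* was at 242 to 412 CPM in both vascular gates.

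Over the 6 genes, edgeR called 4 between neural and mural gates (33.1% of 9281 genes tested were called), 5 between neural and endothelial (36.4%), 3 between neural and microglial (44.3%), 4 between mural and endothelial (20.7%), 5 between mural and microglial (37.7%) and 3 between endothelial and microglial gates (36.2%). In all 24 of 36 differences were called.

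Within the neural gate, *Hes1* and *Hes5* were counted almost entirely in progenitor-like cells. The classes rest on marker lists that hold none of the 6 genes, and 7 cells lay near the border between them. There were 17, 13 and 3 progenitor-like and 39, 40 and 11 neuron-like cells on plates 1, 2 and 3. *Hes1* gave 18, 12 and 0 transcripts in progenitor-like cells and 0, 1 and 0 in neuron-like cells. *Hes5* gave 27, 15 and 0 against 1, 1 and 0, with 17 of the 27 in 1 cell of plate 1 and 9 of the 15 in 1 cell of plate 2. Without those cells, left out after seeing the data, *Hes5* was at 77.5 CPM on plate 1 and 69.6 CPM on plate 2, and *Hes1* without the cell that held most of it was at 113 and 81.2 CPM. On plates 1 and 2 the classes were far apart for both genes, at 131 and 123 against 0 and 3.08 CPM for *Hes1* and at 196 and 154 against 3.19 and 3.08 CPM for *Hes5*. The 3 progenitor-like cells of plate 3 held neither gene, which allows up to 119 CPM of each there by 3 counts (exact 95% upper limit 147 CPM). These limits cover counting error alone. They lie below the *Hes5* levels of plates 1 and 2 with all cells, but above the 77.5 and 69.6 CPM without the highest cell. The 3 cells are therefore too few to place *Hes5* on plate 3 below the other plates. Summed over plates, *Hes1* was at 115 CPM (exact 95% Poisson interval 77.7 to 164) in progenitor-like and 1.42 CPM in neuron-like cells, and was found in 45.5% and 1.11% of them. *Hes5* was at 161 CPM (116 to 218) against 2.84 CPM, and was found in 30.3% and 2.22%.

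*Hes6* was found in both classes. It gave 25, 14 and 0 transcripts in progenitor-like and 28, 29 and 14 in neuron-like cells, or 181, 144 and 0 against 89.2, 89.2 and 211 CPM. Progenitor-like cells were higher on plates 1 and 2 and neuron-like cells on plate 3, where 10 of their 14 transcripts were in 1 cell. *Hey1* gave 7, 8 and 0 against 8, 7 and 0 transcripts, or 50.8, 82.1 and 0 against 25.5, 21.5 and 0 CPM, so that progenitor-like cells were higher on plates 1 and 2 for this gene too. *Hey2* gave 1, 2 and 0 against 1, 0 and 1 and *Heyl* 0, 0 and 0 against 2, 0 and 0, numbers too small to compare for the last 2 genes.

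With the filter on low counts only *Hes6* of the 6 genes was tested, at 0.31 (SE 0.50, edgeR, adjusted p = 0.732), so 0 of 1 was called, where 17.0% of 2023 genes were. In that fit its unadjusted p did not fall under 0.05 either, and DESeq2 did not call it. *Hes1* and *Hes5* did not pass that filter, and passed it once plate 3 was left out. Without the filter (4.54% of 15896 genes called) progenitor-like cells exceeded neuron-like cells by 5.47 for *Hes1* (SE 0.88, edgeR, adjusted p = 1.95e-07) and by 5.20 for *Hes5* (SE 0.76, edgeR, adjusted p = 5.39e-09). Leaving out plate 3 with the filter in place (21.2% of 4528 genes called) gave 5.87 for *Hes1* (edgeR, adjusted p = 0.00013) and 5.55 for *Hes5* (adjusted p = 3.33e-05). In the same fit *Hes6* was at 0.84 (SE 0.33, edgeR, adjusted p = 0.0866) and *Hey1* at 1.39 (SE 0.55, adjusted p = 0.0903), neither called, although 4 of the 4 genes tested had an unadjusted p under 0.05. The fitted values of *Hes1* and *Hes5* depend on a prior count, since neuron-like cells held 1 and 2 transcripts.

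**Figure D3:**
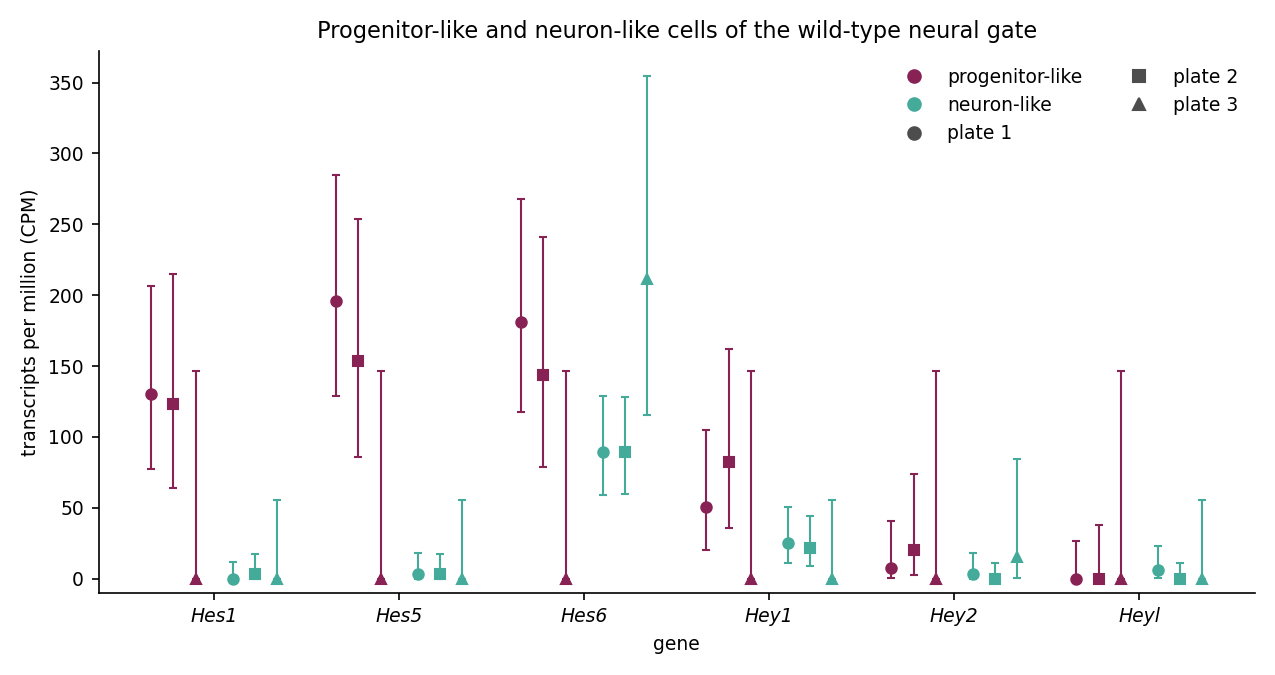
Levels of the 6 genes in CPM in progenitor-like and neuron-like cells of the wild-type neural gate, with a symbol per plate and exact 95% Poisson intervals as bars. *Hes1* and *Hes5* were above 120 CPM in progenitor-like cells of plates 1 and 2 and at 0 to 3.19 CPM in neuron-like cells, and plate 3, with 3 progenitor-like cells, gave 0 for both.

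On plate 1, progenitor-like cells from the mural and the medium or low PDGFRB gates held more *Hes5* than those from the neural gate. *Hes5* was at 841 CPM in 9 cells of the mural gate and 1212 CPM in 9 cells of the medium or low PDGFRB gate there, against 196 CPM in 17 cells of the neural gate. On plate 2 it was at 151 CPM in 1 cell and 200 CPM in 3 cells, against 154 CPM in 13 cells, so that the difference rests on plate 1. Without the cell that held most *Hes5* in each sum, the plate 1 levels were 662 CPM in the mural gate, 856 in the medium or low PDGFRB gate and 77.5 in the neural gate. Summed over plates, the 33 cells from the neural gate had 161 CPM, the 10 from the mural gate 716 CPM (exact 95% Poisson interval 534 to 938), the 5 from the endothelial gate 134 CPM (53.7 to 275, with all 7 transcripts in 1 cell of plate 2) and the 12 from the medium or low PDGFRB gate 938 CPM (766 to 1136). *Hes1* was at 115, 399, 191 and 253 CPM in the same order, and 19 of its 27 transcripts in the mural gate on plate 1 came from 1 cell (454 CPM with it, 177 CPM without it). *Hes6* was at 150 CPM in those of the neural gate and at 82.6, 0 and 27.1 CPM in the rest, so all 3 lay below the neural gate for this gene. These intervals cover counting error of few cells, and no test across plates was made.

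In the knockout, the targeted gene *Kat8*, which encodes MOF, was at 16.3, 17.6 and 17.5 CPM on wild-type plates 1 to 3 and at 12.7, 10.4 and 11.2 CPM on knockout plates 4 to 6. All knockout plates were below all wild-type plates (17.2 ± 0.746 against 11.4 ± 1.17 CPM, two-sided exact permutation p = 0.1, the smallest that 3 plates against 3 can give). The counts are 3′ tags and the place of the deletion is not given, so these reads may lie outside it and do not check the labels. Knockout plates also differed in what they held: plate 4 had 273 mural-like cells, plate 5 had 81 microglia-like and plate 6 had 297 endothelial-like cells. The *Kat8* values sum all cells of a plate. In the bulk libraries *Kat8* averaged 965 normalized counts in neural, 779 in microglial, 551 in mural and 442 in endothelial cells. What the mix of cells contributes to the *Kat8* levels of the plates was not tested.

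Progenitor-like cells, taken from all gates, numbered 37, 19 and 4 on wild-type plates and 60, 50 and 13 on knockout plates. In them *Hes1* was at 222, 180 and 0 CPM in wild type and 511, 152 and 157 CPM in knockout. *Hes5* was at 572, 187 and 0 against 953, 165 and 177 CPM. For both genes plate 4 was the highest, and plates 5 and 6 lay below plate 1, so the groups overlapped. Wild-type plate 1 sums 17 cells of the neural gate with 20 of other gates, and the gates of the knockout cells are not known. In wild-type cells of the neural gate alone, *Hes1* was at 131, 123 and 0 CPM, below every knockout plate, and *Hes5* at 196, 154 and 0 CPM, which still overlapped with the knockout. *Hes6* was at 108, 93.3 and 0 against 39.5, 83.7 and 115 CPM, *Hey1* at 62.1, 74.7 and 0 against 77.4, 68.3 and 41.7, *Hey2* at 39.2, 12.4 and 0 against 65.3, 13.2 and 0 and *Heyl* at 13.1, 6.22 and 0 against 8.60, 6.61 and 10.4 CPM. These overlapped too.

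Knockout minus wild type was 0.79 for *Hes1* (SE 0.58), 0.58 for *Hes5* (SE 0.75), -0.24 for *Hes6* (SE 0.54) and 0.18 for *Hey1* (SE 0.48) on the log2 scale. Of the 4 genes tested 0 were called by edgeR and 0 by DESeq2, and 0 had an unadjusted p under 0.05 by edgeR, where 0% of 3929 genes were called and 84 had an unadjusted p under 0.05. In an alternative chosen after seeing the data, with only the wild-type cells of the neural gate, the difference was 1.47 for *Hes1* (SE 0.62), 1.69 for *Hes5* (SE 0.76) and -0.89 for *Hes6* (SE 0.58). Of these 3 genes 0 were called by edgeR, as were 0% of 1983 genes tested, but 2 had an unadjusted p under 0.05 (*Hes1*, unadjusted p = 0.0388, and *Hes5*, unadjusted p = 0.0489), as did 56 of all genes. Wild-type progenitor-like cells had 161 CPM of *Hes5* in the neural, 716 in the mural and 938 in the medium or low PDGFRB gate. The gates of the knockout cells are not known, so gate and genotype cannot be told apart in this alternative. Without plate 4, and with wild-type cells of all gates, knockout minus wild type was -0.19 for *Hes1* and -0.92 for *Hes5*, so its direction rested on that plate. In neuron-like cells, which numbered 46, 43 and 12 in wild type and 2, 64 and 28 in knockout, *Hes6* was at 113, 93.1 and 204 CPM against 76.2, 118 and 106. The plates overlapped, the difference was -0.10 (SE 0.37, edgeR, adjusted p = 1.0), and 0 of 1 gene tested was called, where 0.0443% of 4513 genes were and 205 had an unadjusted p under 0.05. The *Hes6* difference had no unadjusted p under 0.05, and DESeq2 did not call it.

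**Figure D4:**
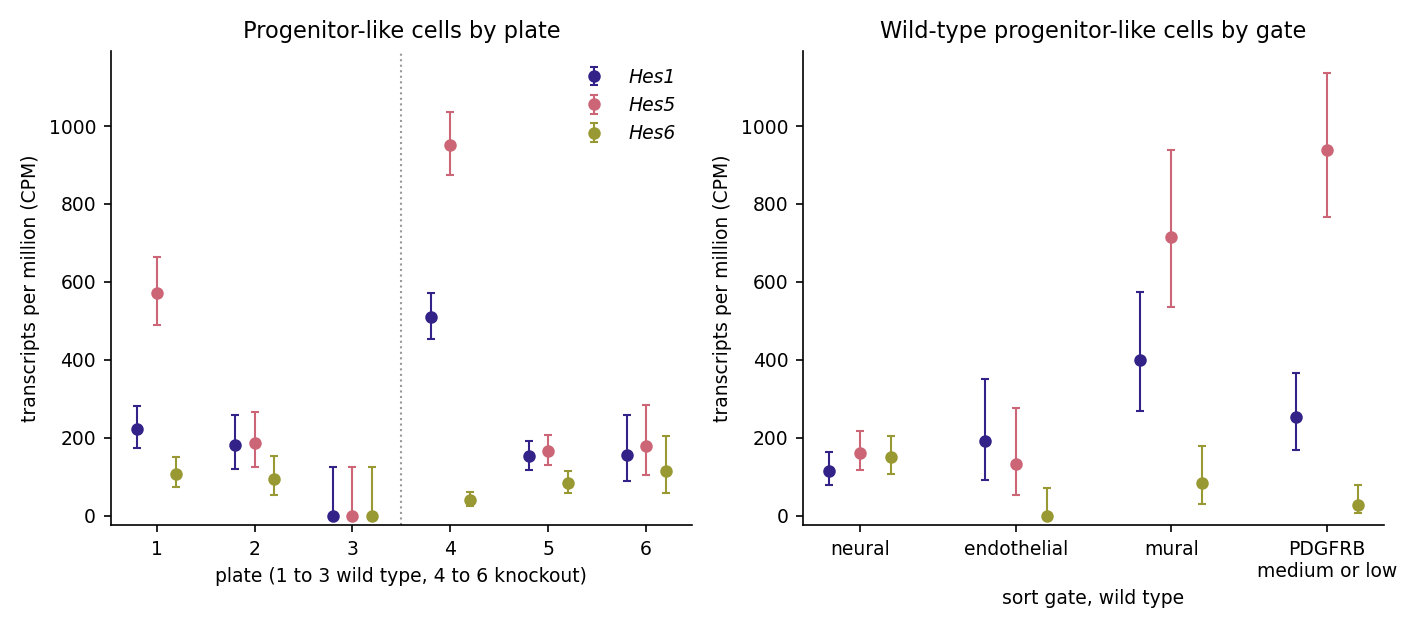
Levels of *Hes1*, *Hes5* and *Hes6* in CPM in progenitor-like cells, by plate on the left (1 to 3 wild type, 4 to 6 knockout) and by wild-type sort gate on the right, with exact 95% Poisson intervals as bars. *Hes1* and *Hes5* were highest on knockout plate 4 (511 and 953 CPM), while plates 5 and 6 lay within the range of wild-type plates summed over all gates. *Hes5* summed over plates was at 716 and 938 CPM in the mural and the medium or low PDGFRB gates, values set by plate 1, against 151 and 200 CPM on plate 2 alone.

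Vascular classes were held mostly by 1 knockout plate each, so their values are given with no test. In mural-like cells *Hes1* was at 323, 342 and 390 CPM on plates 1 to 3 and 334 on plate 4, *Heyl* at 499, 452 and 585 against 514, and *Hey2* at 105, 59.0 and 65.0 against 83.8. All 3 plate 4 values lay within the wild-type range. The 9 mural-like cells of knockout plate 6 lay below that range for each gene, at 260 CPM for *Hes1* (exact 95% Poisson interval 142 to 435), 389 for *Heyl* (241 to 595) and 18.5 for *Hey2* (1 transcript, 0.469 to 103), with intervals that reach into it. In endothelial-like cells *Hes1* was at 321, 298 and 250 CPM in wild type and at 218 CPM on plate 6 (exact 95% Poisson interval 196 to 241), just below the wild-type plates. *Hey1* was at 101, 34.2 and 45.5 against 73.4 CPM. The 2 endothelial-like cells of plate 4 held 3 transcripts of *Hes1* and 0 of *Hey1*.

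The other genes of the Notch pathway were divided into 9 lists of 48 genes, of which the receptors are the entry point. For reading the counts below, of all 19765 genes tested 28.7% were higher and 25.8% lower in neural than in mural cells, 30.6% higher and 27.1% lower in neural than in endothelial cells, 30.4% higher in neural cells than in microglia, and 13.5% higher and 14.3% lower in mural than in endothelial cells. In the bulk libraries *Notch1* averaged 7923 ± 822 normalized counts in neural, 4877 ± 1633 in endothelial, 2128 ± 583 in mural and 498 ± 66.7 in microglial cells. *Notch3*, known from mural cells, was at 2368 ± 90.5 in neural and 2019 ± 528 in mural cells, against 94.5 ± 86.7 in endothelial cells and 37.9 ± 16.3 in microglia. *Notch4*, known from endothelial cells, was at 2899 ± 948 there and at 486 ± 307 or less elsewhere. Mural and endothelial cells differed in all 4 receptors: 2 of 4 were higher in mural (13.5% of all genes) and 2 in endothelial cells (14.3%), with *Notch3* higher by 5.55 in mural cells (limma, adjusted p = 0.00328). Of the receptors 2 were higher in neural than in mural cells and 1 lower, and 3 were higher in neural than in endothelial cells and 1 lower.

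Ligands followed the populations as well. *Dll1*, the main ligand of newborn neurons, was at 4007 ± 47.1 normalized counts in neural cells and at 0 to 1.42 in endothelial cells. *Dll4*, the ligand of sprouting endothelium, was at 1707 ± 1024 in endothelial cells and 12 ± 15.1 in microglia. *Jag1* was at 4400 ± 1135 in mural and 3741 ± 1166 in endothelial cells, and *Jag2* at 4852 ± 1663 in endothelial and 39.6 ± 33.0 in mural cells, a difference of -7.76 (limma, adjusted p = 0.000125). Of 5 ligands 3 were higher in neural than in mural cells and 0 lower, with a median difference of 4.95 against 0.13 over all genes tested. Between mural and endothelial cells 1 was higher and 2 were lower. The fringes, which modify Notch and its choice of ligand, were higher in neural than in mural cells in 3 of 3 cases (28.7% of all genes), led by *Mfng* (7.35, limma, adjusted p = 0.000519). Mural libraries had 0 to 97.0 normalized counts of *Mfng*, so the size of its difference rests on the pseudocount. Only 1 of 3 was higher in neural than in endothelial cells (30.6%) and 0 of 3 than in microglia (30.4%), and 2 of 3 were lower in mural than in endothelial cells (14.3%).

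**Figure D5:**
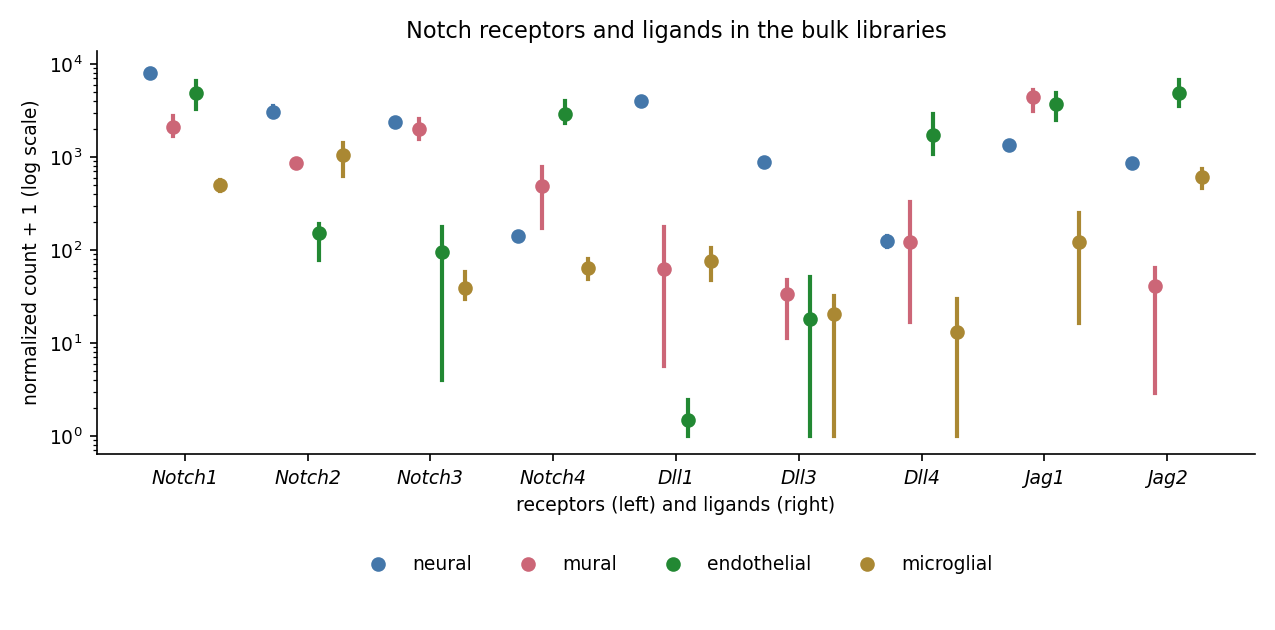
Normalized counts of the 4 Notch receptors and 5 ligands in the bulk libraries, by population, as normalized count + 1 on a log axis, with points at the mean of 3 brains and bars from the lowest to the highest. *Notch4*, *Dll4* and *Jag2* were highest in endothelial cells, *Dll1* and *Dll3* in neural cells, and *Notch3* averaged 2368 in neural and 2019 in mural cells.

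A further list held genes of neurogenesis, 3 of which are given here by their levels. *Neurog2*, a proneural gene that HES proteins are known to repress, averaged 4436 ± 227 normalized counts in neural cells and 140 ± 95.8 in mural cells. *Eomes*, which marks intermediate progenitors, was at 6129 ± 401 and 127 ± 132. *Insm1*, another gene of these progenitors, was at 5754 ± 321 and 22.3 ± 18.9, a difference of 8.53 (limma, adjusted p = 0.000419). The same neural libraries had the highest mean *Hes5* and *Hes6*, and a *Hes1* level that the test did not separate from that of microglia. The Groucho corepressors, which HES proteins recruit, were higher in neural than in mural cells in 4 of 4 cases (28.7% of all genes), led by *Tle2* (9.21, limma, adjusted p = 0.000256). Mural libraries had 0 to 1.14 normalized counts of *Tle2*, against 838 to 893 in neural ones, so the size of its difference rests on the pseudocount. Of the 4 corepressors 3 were lower in mural than in endothelial cells (14.3%).

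In the nuclear complex, *Rbpj* was higher in neural than in endothelial cells by 2.95 (limma, adjusted p = 7.84e-05), and 3 of the 4 genes were higher and 1 lower in neural than in mural cells. The 8 proteases had 1 higher and 2 lower in neural than in mural cells and a median difference of -0.17, against 0.13 over all genes tested. Among 6 genes of ligand endocytosis and inhibitors 3 were higher in neural than in mural cells and 0 lower, with *Numbl*, an inhibitor, at 3.80 (limma, adjusted p = 0.00283). Of 6 other targets and relatives 5 could be tested. Among these *Nrarp*, a feedback target of Notch, exceeded microglia by 4.04 in endothelial cells (limma, adjusted p = 0.000796), and *Bhlhe41*, a relative of the *Hes* genes, had a neural minus microglial difference of -6.66 (limma, adjusted p = 0.000372).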

How the data were processed

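The 6 genes and the lists were chosen with earlier results of these data known. The authors' bulk table as deposited holds normalized counts, taken here as a linear signal, which in a given library are whole reads divided by 1 factor: 124078 of 124078 low values (100%) came out whole within 0.01. For the single cells the authors deposited transcript counts corrected for identifiers drawn more than once, and every value followed that formula for 4096 identifiers; sums were rounded. The submitters' processing notes name mm10, BWA 0.6.2-r126, STAR, featureCounts and DESeq2, without roles.

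Bulk differences were tested with limma 3.58.1 (R 4.3.3) on log2(normalized count + 1), over all 12 libraries, for genes with a mean of at least 10. Sums per plate and gate or class were tested with edgeR 4.0.16 (quasi-likelihood, TMM, filterByExpr), for cells with over 1500 transcripts. Tests were two-sided with Benjamini-Hochberg adjustment over all genes tested, and called means an adjusted p under 0.05. DESeq2 1.42.0, and edgeR on the recovered reads, were alternatives, as were pseudocounts, filters, quantile normalization, depth minimums, blocks and each replicate left out. Sums without cells classed unlike their gate, and knockout comparisons with wild-type cells of the neural gate only, were added after seeing the data. Each cell took the class with the highest mean log2(1 + 10000 × count/total) over its marker list, and a margin under 0.3 was near the border. Doublets were not called. *Dpt* and *Hba-a2* of the marker lists were not found in the single cells. Genes named are the 6 members, *Kat8*, for each member the 3 genes with the highest r, and from 9 Notch pathway lists the gene with the largest difference; levels of further receptors, ligands, *Neurog2* and *Eomes* were added after seeing values, and 1 gene of these lists is not reported here. Bulk libraries of 1 number were taken as 1 brain. Their residuals correlated from -0.054 to 0.0801 between populations of the same brain (18 pairs) and from -0.0661 to 0.0509 between brains (36 pairs). Methods were tested on simulated data. Python 3.11.15, numpy 2.4.6, pandas 2.3.3, scipy 1.17.1 and matplotlib 3.10.9 were used.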

Additional observations from a re-analysis of the deposited data

Results flagged for a closer look

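The 23 wild-type wells of the medium or low PDGFRB gate enter no comparison between gates, although their 12 progenitor-like cells are described above and count among the wild-type cells of the knockout test. *Hes5* was high in them. Summed over these wells it was at 634 CPM (exact 95% Poisson interval 518 to 768), above all wild-type gates, of which the neural gate had 45.6 CPM and the microglial gate 1.46 CPM. It was at 938 CPM in 14 wells of plate 1 and at 101 CPM in 9 wells of plate 2, where all 6 transcripts came from 1 cell. *Hes1* was at 207 CPM, *Hey2* at 79.2 CPM and *Heyl* at 67.0 CPM. Of the 104 *Hes5* transcripts in these wells, 104 were in the 12 progenitor-like cells.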

How the results depend on the processing

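Of 45 called member differences, 28 were called under each alternative in which they could be tested. In the gates *Hes5* and *Hey1* were tested in 7 alternatives and the other genes in 9, because of the filter. Over 408 alternatives of these differences 378 kept the call and the direction, 30 lost the call and 0 reversed. With the brain as a replicate block, 20 of 36 bulk differences were called, against 21 without it, and with the plate as a replicate block 24 gate differences, as without it. For the bulk pairs, DESeq2 on recovered reads called 5 genes between mural and endothelial cells. Leaving out each brain gave 1 to 2 there (1 without brain N-343 or N-346), 2 to 5 for neural against endothelial cells (2 without N-343) and 1 to 4 for neural cells against microglia (1 without N-346). For the gates, leaving out each plate gave 15 to 24 calls in all, the lowest without plate 1, where only 4 of the 6 genes passed the filter (5 without plate 2): 2 to 4 for mural against endothelial, 3 to 5 for mural against microglial, 3 to 5 for neural against endothelial and 1 to 3 for neural against microglial cells. DESeq2 called 1 between mural and endothelial and 3 between neural and endothelial gates, where leaving out cells classed unlike their gate, added after seeing the data, also gave 3, with 5 of the 6 genes tested. In the neural gate 2 genes were called without the filter, and 0 to 2 when each plate was left out.

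Reversed values were all of differences that were not called. In the bulk libraries neural minus microglial *Hes1* was -0.21 after quantile normalization. In the single-cell gates neural minus mural *Hes5* was -0.073 without the filter and -0.52 without plate 2. Progenitor-like minus neuron-like *Hes6* was -0.11 with DESeq2, -0.58 without plate 1 and -0.18 without plate 2. In knockout neuron-like cells *Hes6* was 0.011 without cells near the border and 0.17 without plate 3. In knockout progenitor-like cells *Hes6* was 0.061 without plate 1, and without plate 4 *Hes1* was -0.19, *Hes5* -0.92, *Hes6* 0.045 and *Hey1* -0.017. Causes were not tested. Of 24 shares of cells with a transcript, 19 left their interval after thinning, so they follow depth.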
